A study of Homo sapiens with 8 samples.

Results

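Genes of the centromere, the kinetochore and the spindle checkpoint were followed across 4 groups of cultured breast cancer cells. A list of 42 genes was matched by symbol to probe sets that the platform annotation pairs with a single gene, and 41 of the 42 were measured among 18417 genes in all. CENPJ was found under its current RefSeq symbol, CPAP. CENPA, the histone variant that marks the centromere, is annotated to a probe set it shares with another gene and was not analysed here. The list follows the proteins' roles at the centromere and in the checkpoint.

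The groups were HCC1937 cells given COH29, HCC1937 controls, HCC1937+BRCA1 cells given COH29 and HCC1937+BRCA1 controls, with 2 Affymetrix arrays each and 8 in all. HCC1937 is a human breast cancer line with a truncated BRCA1, and HCC1937+BRCA1 is the same line carrying exogenous wild-type BRCA1. COH29, an inhibitor of ribonucleotide reductase, was used at 10 µM for 24 h. The labels name neither a vehicle nor the hours of the controls, and their effects and the drug's cannot be told apart. The treatment protocol text names COH29 on all 8 samples, controls included, while the treatment characteristic, which set the groups here, marks 4 as controls. The construct that carries BRCA1, its promoter and whether the line is 1 clone are not given in the sources used here. Nor do the labels state whether both arrays of a group stem from separate cultures. The p-values therefore measure the spread between these samples alone, which may be technical.

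The kinetochore is the protein assembly that joins a chromosome's centromere to spindle microtubules at mitosis. Its inner layer, the constitutive centromere-associated network, sits on centromeric chromatin and holds an outer layer, the KNL1, MIS12 and NDC80 complexes, which grips the microtubule. Kinetochores without a microtubule recruit the spindle checkpoint proteins, which hold back the anaphase-promoting complex, while the chromosomal passenger complex releases faulty attachments and the shugoshins protect cohesion at the centromere. Transcripts of many of these proteins are made mainly in G2 and mitosis, so cultures that differ in cell cycle stage differ in them. In RNA of whole cultures, fewer cells at a stage and less RNA per cell cannot be told apart.

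Values were log2 intensities. The medians of the 8 arrays lay between 7.844 and 7.935, and within a group the arrays correlated at 0.996 to 0.997 over all genes. Precision is limited by the number of arrays, and the standard error of a change between groups had a median of 0.103. Changes were tested with limma across all 18417 genes, and "rose", "fell" and "called" below mean a Benjamini-Hochberg adjusted p under 0.05 over all of them. Each gene is represented by 1 probe set, so levels are compared between arrays and not between genes.

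Most genes of the list were lower with COH29 in both lines. In HCC1937, 25 of the 41 genes fell, against 12.5% of all genes tested, and 2 rose, against 10.2%. The median log2 change was -0.40, against 0.04 over all genes. In HCC1937+BRCA1, 28 of the 41 fell, against 20.1% of all genes, and 2 rose, against 13.6%. Their median there was -0.56, against 0.04 over all genes. The 25 genes that fell in HCC1937 also fell in HCC1937+BRCA1, whereas 10.8% of all genes fell in both lines. CENPM, CENPJ and MAD2L1 were called in HCC1937+BRCA1 and not in HCC1937, CENPQ and MIS12 rose in both lines, and 11 genes were called in neither. Counted by arrays alone, 32 genes were lower on both treated arrays than on both controls in HCC1937, against 28.6% of all genes, and 5 were higher, against 33.8%. In HCC1937+BRCA1, 32 were lower, against 33% of all genes, and 4 were higher, against 35.4%. A fall of over 1 on the log2 scale was called for 3 genes in HCC1937 (0.972% of all genes) and for 8 in HCC1937+BRCA1 (2.12% of all genes).

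**Figure D1:**
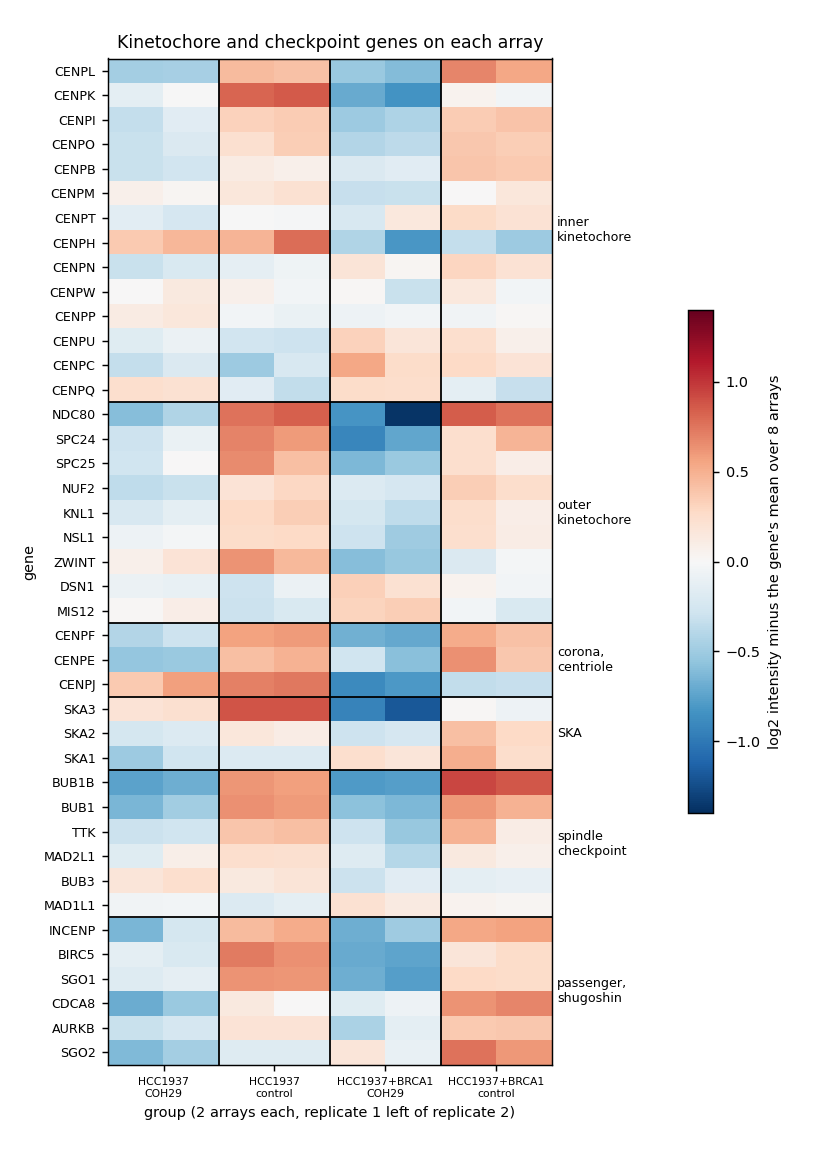
Each row is a gene and each column an array, and colour gives the log2 intensity minus that gene's mean over the 8 arrays. NDC80, BUB1B and BUB1 are below their means on all 4 COH29 arrays and above them on all 4 control arrays, while CENPH, CENPJ and SKA3 also differ by line.

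Promoter sequences were read for the genes because many of them changed together and because genes expressed in G2 and mitosis often carry a cell cycle homology region (CHR) downstream of CCAAT boxes. RefSeq promoter windows (GRCh38.p14), which run from 250 bases before a gene's start to 50 after it, were matched for 34 of the 41 measured genes and gave 40 windows. CENPH, CENPL, CENPM, KNL1, BUB3, TTK and BIRC5 had no match. The CHR was searched as TTTGAA or TTCGAA and the CCAAT box as CCAAT, both on either strand. A CHR match lay in 18 of the 40 windows (45.0%), against 13.6% of the 20108 windows of all genes tested. A CCAAT match lay in 24 (60.0%), against 34.6%, and both lay in 12, against 5.41%. A CHR match within 50 bases of the start was present in 17 (42.5%), against 3.94%. Of the 24 windows of genes that fell in both lines, 13 (54.2%) had a CHR match, as had 4 of the 14 windows of genes that fell in neither line (28.6%). CCAAT matches were about as frequent in those sets, with 15 of 24 (62.5%) and 8 of 14 (57.1%). A match is a string of letters and not a shown binding site, and these shares were not tested.

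The 100 bases before the start are shown for the genes whose CHR match lay wholly within them, BUB1B, CDCA8, INCENP, ZWINT and CENPC, and for both genes that rose. They are given 5′ to 3′ on the strand of the gene, with CHR and CCAAT matches in capitals. BUB1B, a checkpoint kinase-like protein, lies on the plus strand at chr15:40160969-40161068. CDCA8, a passenger complex subunit, lies on the plus strand at chr1:37692416-37692515, and its CHR match TTTGAA shares a base with the CCAAT match that follows it. INCENP, the passenger scaffold, lies on the plus strand at chr11:62123911-62124010, and the outer kinetochore gene ZWINT on the minus strand at chr10:56361260-56361359. These 4 genes fell in both lines. CENPC, an inner kinetochore scaffold that was called in neither line, lies on the minus strand at chr4:67545504-67545603. MIS12 and CENPQ, which rose in both lines, lie on the plus strand at chr17:5486274-5486373 and chr6:49463270-49463369, with CCAAT matches and no CHR match in these bases.
BUB1B: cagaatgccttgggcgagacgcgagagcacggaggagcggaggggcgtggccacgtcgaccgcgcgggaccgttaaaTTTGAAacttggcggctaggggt
CDCA8: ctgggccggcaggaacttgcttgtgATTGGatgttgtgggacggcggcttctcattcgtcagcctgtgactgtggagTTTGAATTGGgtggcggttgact
INCENP: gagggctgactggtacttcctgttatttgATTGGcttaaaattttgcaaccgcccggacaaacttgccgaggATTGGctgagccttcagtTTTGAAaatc
ZWINT: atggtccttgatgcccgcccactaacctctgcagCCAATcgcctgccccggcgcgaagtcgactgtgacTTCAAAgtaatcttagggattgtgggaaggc
CENPC: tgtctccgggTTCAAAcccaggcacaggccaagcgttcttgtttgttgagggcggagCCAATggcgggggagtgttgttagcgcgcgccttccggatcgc
MIS12: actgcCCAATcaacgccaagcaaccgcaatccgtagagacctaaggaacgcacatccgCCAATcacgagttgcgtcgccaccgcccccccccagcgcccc
CENPQ: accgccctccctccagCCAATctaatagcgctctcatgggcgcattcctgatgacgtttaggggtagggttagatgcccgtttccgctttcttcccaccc

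**Figure D2:**
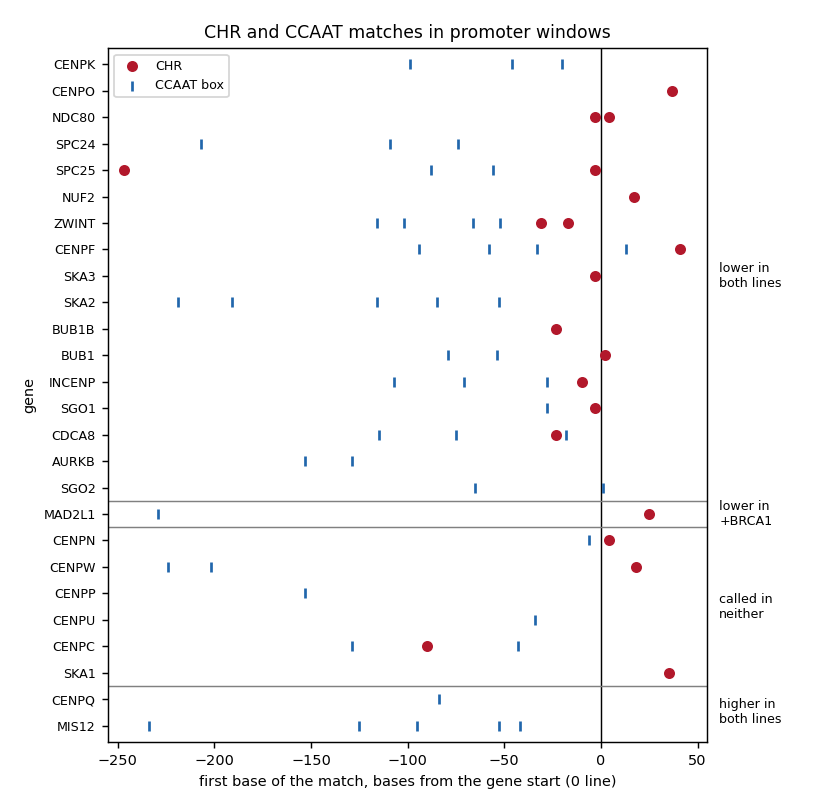
Each row is a gene with at least 1 match, grouped by its response to COH29, and the horizontal axis gives the first base of each CHR match (circles) and CCAAT match (bars) in bases from the gene's start, over windows of 300 bases. CHR matches lie mostly near the start in the group that fell in both lines, where SPC25 has a further match at -247. They also lie near it in CENPN, CENPW and SKA1, called in neither line, and in MAD2L1, while that of CENPC lies at -90. The rows of CENPQ and MIS12 hold CCAAT matches only.

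The inner kinetochore responded in part. Of its 14 measured genes, 5 fell in HCC1937, against 12.5% of all genes, and 1 rose, against 10.2%. Their median log2 change was -0.18. In HCC1937+BRCA1 6 fell, against 20.1% of all genes, and 1 rose, against 13.6%, with a median of -0.23. CENPL, a subunit that pairs with CENPN, read 8.34 and 8.35 on the COH29 arrays of HCC1937, against 9.25 and 9.22 on its control arrays. In HCC1937+BRCA1 it read 8.29 and 8.20 with COH29, against 9.50 and 9.35 without. The arrays with and without drug were well apart in both lines, and the log2 changes were -0.89 ± 0.09 (SE, adjusted p = 0.00019) and -1.18 ± 0.09 (adjusted p = 2.22e-05), the only fall of over 1 among these 14 genes.

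CENPK and CENPI, which belong with CENPH to one module of the network, also fell in both lines. CENPK changed by -0.91 ± 0.09 in HCC1937 and -0.77 ± 0.09 in HCC1937+BRCA1 (adjusted p = 0.000227 and 0.000273). CENPI changed by -0.58 ± 0.09 and -0.85 ± 0.09 (adjusted p = 0.00186 and 0.000146). CENPH, their partner, was not called in either line: its COH29 arrays read 8.25 and 8.34 in HCC1937, against 8.35 and 8.66, and 7.46 and 7.06 in HCC1937+BRCA1, against 7.54 and 7.37. The arrays of the 2 conditions overlapped for CENPH in HCC1937+BRCA1 and nearly touched in HCC1937.

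CENPO, of the module that also holds CENPP, CENPQ and CENPU, changed by -0.53 ± 0.09 and -0.75 ± 0.09 (adjusted p = 0.00236 and 0.000223). CENPQ, in the same module, rose. It read 9.85 and 9.83 with COH29 in HCC1937, against 9.46 and 9.27, and 9.87 and 9.86 with COH29 in HCC1937+BRCA1, against 9.48 and 9.29, so that the levels in both lines nearly coincided. The changes were 0.47 ± 0.10 (adjusted p = 0.00878) and 0.48 ± 0.10 (adjusted p = 0.00567). CENPP and CENPU were called in neither line, with changes of 0.20 ± 0.08 and 0.16 ± 0.09 in HCC1937 and of -0.04 ± 0.08 and 0.09 ± 0.09 in HCC1937+BRCA1. The call of CENPQ in HCC1937 was lost without control array 2 (adjusted p = 0.0813), and the sign of CENPP in HCC1937+BRCA1 turned after median scaling (0.03) and after loess (0.07). In HCC1937 CENPP was called higher after loess (0.23, adjusted p = 0.0437) and with no moderation (adjusted p = 0.0355).

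CENPB, which binds a DNA sequence of centromeric satellite repeats, changed by -0.39 ± 0.08 in HCC1937 and -0.55 ± 0.08 in HCC1937+BRCA1 (adjusted p = 0.00742 and 0.000688), and its call in HCC1937 was lost without control array 1 (adjusted p = 0.059). CENPM, a subunit of the module with CENPI, fell in HCC1937+BRCA1 (-0.40 ± 0.09, adjusted p = 0.00629) and was not called in HCC1937 (-0.14 ± 0.09, adjusted p = 0.301). The other inner kinetochore genes were called in neither line. They were CENPC, whose protein bridges to the outer layer (0.10 ± 0.13 and 0.16 ± 0.13), CENPN (-0.17 ± 0.09 and -0.15 ± 0.09), and the histone-fold proteins CENPT (-0.18 ± 0.12 and -0.27 ± 0.12) and CENPW (0.06 ± 0.13 and -0.20 ± 0.13). CENPT was called in HCC1937+BRCA1 when COH29 array 2 was left out (adjusted p = 0.0153).

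Of the 9 outer kinetochore genes, 7 fell in either line, against 12.5% of all genes in HCC1937 and 20.1% in HCC1937+BRCA1. In either line 1 rose, against 10.2% and 13.6%. Median log2 changes of the 9 were -0.49 in HCC1937 and -0.51 in HCC1937+BRCA1. NDC80, the subunit whose head domain binds the microtubule, fell most of these. It read 9.04 and 9.22 with COH29 in HCC1937, against 10.40 and 10.47 without, and 8.81 and 8.27 with COH29 in HCC1937+BRCA1, against 10.49 and 10.40 without. No treated array came within 1 log2 unit of a control array of its line. The changes were -1.30 ± 0.16 (adjusted p = 0.000528), a ratio of 0.405, and -1.91 ± 0.16 (adjusted p = 3.76e-05), a ratio of 0.266. The treated HCC1937+BRCA1 arrays differed most from each other (SD 0.38, n = 2), and the control levels of both lines lay together.

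The partners of NDC80 in its complex fell by less. SPC24 read 9.01 and 9.21 with COH29 in HCC1937, against 10.00 and 9.90, and 8.39 and 8.57 in HCC1937+BRCA1, against 9.54 and 9.78, and its changes were -0.84 ± 0.12 and -1.18 ± 0.12 (adjusted p = 0.00114 and 0.000104). SPC25 changed by -0.67 ± 0.12 and -0.74 ± 0.12 (adjusted p = 0.00451 and 0.00164). NUF2, which pairs with NDC80, changed by -0.57 ± 0.08 and -0.51 ± 0.08 (adjusted p = 0.00148 and 0.00155). All 4 subunits of the complex thus fell in both lines.

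KNL1, the scaffold that recruits the BUB proteins, changed by -0.49 ± 0.09 in HCC1937 and -0.47 ± 0.09 in HCC1937+BRCA1 (adjusted p = 0.00531 and 0.00423). ZWINT, its partner, changed by -0.40 ± 0.10 and -0.44 ± 0.10 (adjusted p = 0.0191 and 0.00837). The call of ZWINT in HCC1937 was lost without COH29 array 1 (adjusted p = 0.105) or control array 1 (adjusted p = 0.136), and in HCC1937+BRCA1 without control array 2 (adjusted p = 0.0575).

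The measured genes of the MIS12 complex, which links the inner to the outer layer, did not move as one. A further gene of the complex had no single-gene probe set. MIS12 read 8.83 and 8.91 with COH29 in HCC1937, against 8.52 and 8.61, and 9.13 and 9.16 in HCC1937+BRCA1, against 8.78 and 8.61. It was higher on every treated array than on the controls of its line, by 0.30 ± 0.09 (adjusted p = 0.0412) and 0.45 ± 0.09 (adjusted p = 0.00486). NSL1 changed the other way, by -0.31 ± 0.10 (adjusted p = 0.0468) and -0.56 ± 0.10 (adjusted p = 0.00215). DSN1 was called in neither line, at 0.10 ± 0.10 (adjusted p = 0.519) and 0.28 ± 0.10 (adjusted p = 0.0518), and was called higher in HCC1937+BRCA1 after median scaling (0.35, adjusted p = 0.027), after loess (0.38, adjusted p = 0.0158), with the filter on dim genes (adjusted p = 0.0276) and with a trended, robust eBayes (adjusted p = 0.00817). In HCC1937 the call of MIS12 did not survive the loss of any array of that line (adjusted p = 0.0854 and 0.132 without COH29 arrays 1 and 2, 0.204 and 0.0989 without control arrays 1 and 2) or of either COH29 array of the other line (adjusted p = 0.0567). Nor did that of NSL1 (adjusted p = 0.169 and 0.0906 without COH29 arrays 1 and 2, 0.145 and 0.188 without control arrays 1 and 2, and 0.0568 without either control array of the other line), which median scaling and loess also ended (adjusted p = 0.0788 and 0.0537).

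The motor CENPE and the large coiled-coil protein CENPF, of the fibrous corona that forms on unattached kinetochores, fell in both lines. CENPF read 10.66 and 10.78 with COH29 in HCC1937, against 11.63 and 11.66, and 10.39 and 10.35 in HCC1937+BRCA1, against 11.58 and 11.47. The treated and control arrays did not approach each other, and the changes were -0.92 ± 0.09 (adjusted p = 0.000158) and -1.15 ± 0.09 (adjusted p = 2.5e-05). CENPE changed by -0.99 ± 0.12 and -0.94 ± 0.12 (adjusted p = 0.000666 and 0.000469). CENPJ bears a centromere symbol but encodes a centriole assembly protein. It fell in HCC1937+BRCA1 (-0.51 ± 0.09, adjusted p = 0.00266) and was not called in HCC1937 (-0.25 ± 0.09, adjusted p = 0.0898), where leaving out COH29 array 2 gave a call (adjusted p = 0.044).

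The SKA complex couples the kinetochore to shortening microtubules. SKA3 read 10.31 and 10.34 with COH29 in HCC1937, against 11.00 on both controls, and 9.18 and 8.93 in HCC1937+BRCA1, against 10.14 and 10.05. Its levels differed by drug and by line, with COH29 changes of -0.68 ± 0.10 (adjusted p = 0.00143) and -1.04 ± 0.10 (adjusted p = 8.17e-05). SKA2 changed by -0.35 ± 0.09 and -0.61 ± 0.09 (adjusted p = 0.0195 and 0.000709), and SKA1 was called in neither line (-0.20 ± 0.11 and -0.18 ± 0.11, adjusted p = 0.236 and 0.242). The call of SKA2 in HCC1937 was lost without COH29 array 1, control array 1 or control array 2 (adjusted p = 0.0915, 0.116 and 0.0735), which left 1 of the 3 genes called. The RefSeq table also lists a pseudogene, SKA2P1, whose transcripts the probe set may not tell from SKA2. A second SKA2 probe set read 10.99 and 11.24 with COH29 in HCC1937, against 11.58 and 11.47, and 11.02 and 11.04 in HCC1937+BRCA1, against 11.67 and 11.57, lower with the drug in both lines as well.

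Among the checkpoint genes 3 of 6 fell in HCC1937, against 12.5% of all genes, and 4 of 6 in HCC1937+BRCA1, against 20.1%. Their median log2 changes were -0.48 and -0.55. BUB1B, whose product BUBR1 is part of the mitotic checkpoint complex, read 9.21 and 9.27 with COH29 in HCC1937, against 10.57 and 10.53, and 9.16 and 9.19 in HCC1937+BRCA1, against 10.89 and 10.83. The treated levels of both lines nearly met, while the control level was higher in HCC1937+BRCA1. The changes were -1.31 ± 0.08 (adjusted p = 2.74e-05), a ratio of 0.404, and -1.69 ± 0.08 (adjusted p = 3.14e-06), a ratio of 0.311. In HCC1937 this was the largest fall of the list.

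BUB1, the kinase that brings BUBR1 and shugoshin to the kinetochore, read 9.82 and 9.97 with COH29 in HCC1937, against 11.10 and 11.06, and 9.89 and 9.83 in HCC1937+BRCA1, against 11.07 and 10.95. The arrays of the lines overlapped in either condition, and the changes were -1.19 ± 0.09 (adjusted p = 6.88e-05) and -1.15 ± 0.09 (adjusted p = 3e-05). TTK, the kinase MPS1 that starts the checkpoint signal, changed by -0.70 ± 0.13 in each line (adjusted p = 0.00502 and 0.00292).

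MAD2L1, encoding MAD2, which unattached kinetochores convert to its active form, fell in HCC1937+BRCA1 (-0.40 ± 0.11, adjusted p = 0.0232) and was not called in HCC1937 (-0.27 ± 0.11, adjusted p = 0.116). The first call was lost without COH29 array 2 or either control array (adjusted p = 0.146, 0.11 and 0.0562) and after loess (-0.29, adjusted p = 0.0644). In HCC1937 leaving out COH29 array 2 or a trended, robust eBayes gave one (adjusted p = 0.0486 and 0.0329). MAD1L1, the MAD2 anchor, was called in neither line (0.12 ± 0.08 and 0.14 ± 0.08). Nor was BUB3, the adaptor that binds BUB1 and BUBR1. It read 11.99 and 12.05 with COH29 in HCC1937, against 11.96 and 12.00, and 11.52 and 11.66 in HCC1937+BRCA1, against 11.68 and 11.70. Its changes were 0.04 ± 0.09 with a 95% interval of -0.15 to 0.24, and -0.11 ± 0.09 with an interval of -0.30 to 0.09, which hold no change as large as those of BUB1 and BUB1B.

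**Figure D3:**
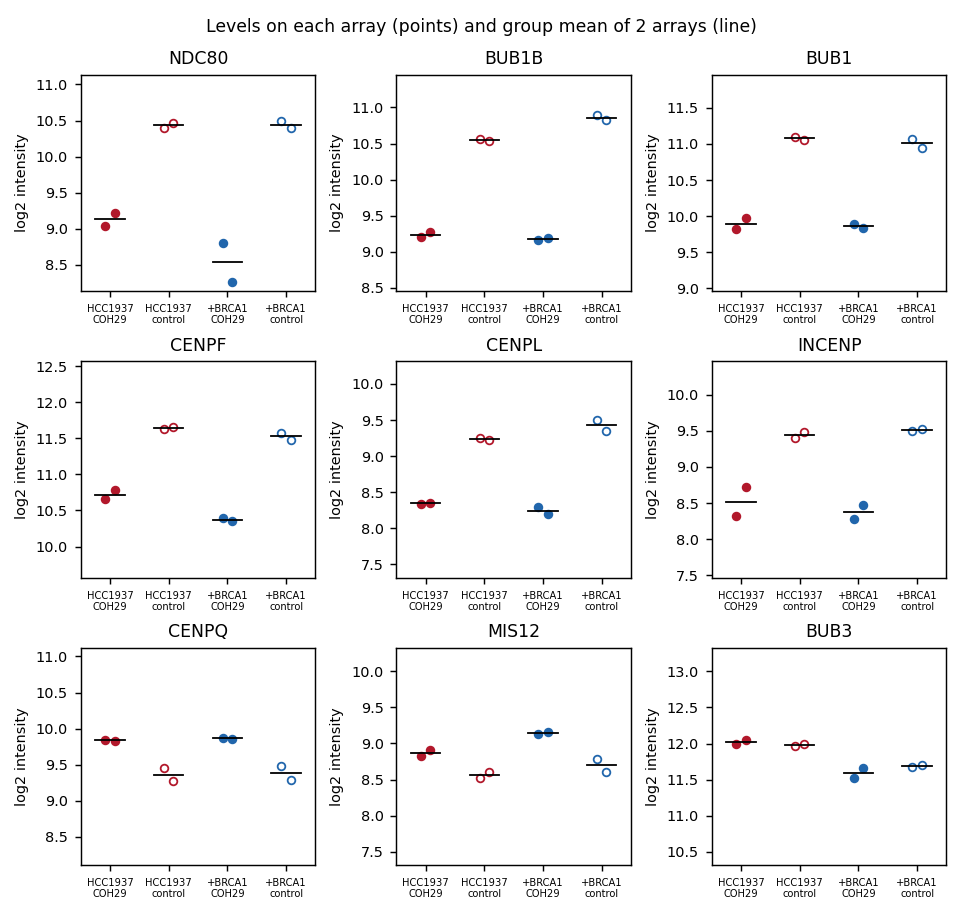
Points are the log2 intensities of the 2 arrays of each group and lines their means, for 9 genes, on axes that each span 3 log2 units. NDC80, BUB1B, BUB1, CENPF, CENPL and INCENP are lower on every COH29 array than on the controls of the same line, CENPQ and MIS12 are higher, and BUB3 overlaps in HCC1937.

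All 6 genes of the chromosomal passenger complex and the shugoshins fell in both lines, against 10.8% of all genes. Their median log2 changes were -0.73 in HCC1937 and -0.86 in HCC1937+BRCA1. INCENP read 8.32 and 8.72 with COH29 in HCC1937, against 9.40 and 9.48, and 8.28 and 8.47 in HCC1937+BRCA1, against 9.50 and 9.53. Treated and control arrays were separate although the treated arrays of HCC1937 were apart (SD 0.28, n = 2), and the changes were -0.92 ± 0.13 (adjusted p = 0.00124) and -1.14 ± 0.13 (adjusted p = 0.000221). BIRC5, the subunit survivin, changed by -0.86 ± 0.09 and -0.94 ± 0.09 (adjusted p = 0.000204 and 6.44e-05). Its second probe set read 6.11 and 5.66 with COH29 in HCC1937, against 6.60 and 6.31, and 5.36 and 5.46 in HCC1937+BRCA1, against 5.83 and 5.70, lower with the drug in both lines but nearer to the controls.

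CDCA8, the subunit borealin, changed by -0.68 ± 0.10 and -0.78 ± 0.10 (adjusted p = 0.0012 and 0.000305). AURKB, the kinase of the complex, changed by -0.46 ± 0.11 and -0.66 ± 0.11 (adjusted p = 0.0139 and 0.00147). SGO1, which protects centromeric cohesion in mitosis, read 10.05 and 10.11 with COH29 in HCC1937, against 10.86 and 10.85, and 9.55 and 9.46 in HCC1937+BRCA1, against 10.51 and 10.49. Its groups did not overlap, and its changes were -0.77 ± 0.08 (adjusted p = 0.000261) and -0.99 ± 0.08 (adjusted p = 3.55e-05). SGO2, its paralog, changed by -0.37 ± 0.11 and -0.65 ± 0.11 (adjusted p = 0.0422 and 0.00201). In HCC1937 the call of AURKB was lost without COH29 array 1, control array 1 or control array 2 (adjusted p = 0.0761, 0.0703 and 0.0768), and that of SGO2 without COH29 array 1 or 2 or control array 1 or 2 (adjusted p = 0.2, 0.0563, 0.146 and 0.157), after median scaling (adjusted p = 0.068) and after loess (adjusted p = 0.0562).

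Falls in HCC1937+BRCA1 had the larger size for many genes, but 0 genes of the list passed limma's test of the difference of effects (the effect in HCC1937 minus that in HCC1937+BRCA1). Over all genes 0.956% did, and the median difference of the 41 genes was 0.12, against 0.02 over all genes. At an unadjusted p under 0.05 there were 4 of the 41, against 2428 of all 18417 genes. NDC80 differed by 0.60 ± 0.22 (95% interval 0.10 to 1.10, adjusted p = 0.29), BUB1B by 0.38 ± 0.11 (0.12 to 0.63, adjusted p = 0.187), SKA3 by 0.37 ± 0.14 (0.05 to 0.68, adjusted p = 0.311) and CENPL by 0.29 ± 0.12 (0.01 to 0.56, adjusted p = 0.363). BUB1 differed by -0.03 ± 0.13, with an interval of -0.32 to 0.25, and TTK by 0.01 ± 0.18, with an interval of -0.41 to 0.42. The genes called in HCC1937+BRCA1 alone differed by 0.27 ± 0.12 (CENPM, adjusted p = 0.4), 0.27 ± 0.13 (CENPJ, adjusted p = 0.442) and 0.12 ± 0.16 (MAD2L1, adjusted p = 0.815). Positive differences were found for 28 of the 41 genes, against 55.1% of all genes. Of the 25 genes that fell in both lines, 20 had a positive difference, which is a smaller change in HCC1937, and so had 76.6% of all 1986 genes that fell in both lines.

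**Figure D4:**
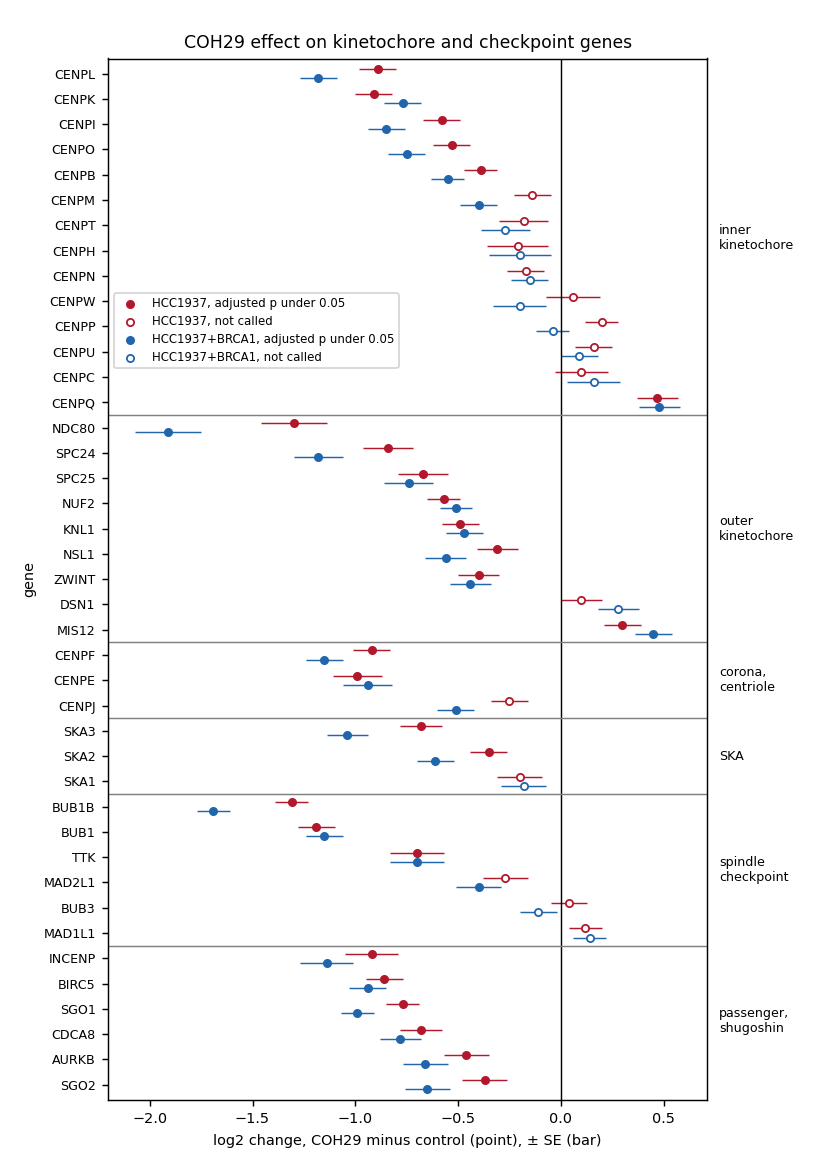
Points give each gene's log2 change, COH29 minus control, in HCC1937 (red) and HCC1937+BRCA1 (blue), with bars of 1 SE, filled where the adjusted p was under 0.05. Changes range from -1.91 (NDC80, HCC1937+BRCA1) to 0.48 (CENPQ, HCC1937+BRCA1), and all 6 passenger complex and shugoshin genes lie below 0 in both lines.

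Without drug the lines differed in 17 of the 41 genes, in both directions. Relative to HCC1937, 8 were higher in HCC1937+BRCA1, against 16.4% of all genes, and 9 were lower, against 14.8%. The median log2 difference was 0.04, against -0.01 over all genes, and these comparisons use the same control arrays as those of the drug. By arrays alone, 17 genes were higher on both HCC1937+BRCA1 controls than on both HCC1937 controls and 14 were lower, against 31.8% of all genes in each direction. CENPH read 7.54 and 7.37 in HCC1937+BRCA1, against 8.35 and 8.66 in HCC1937, and differed by -1.05 ± 0.15 (adjusted p = 0.000678). CENPJ read 7.47 and 7.49, against 8.52 and 8.55, and differed by -1.05 ± 0.09 (adjusted p = 4.04e-05). The lines did not overlap for either gene. SKA3 (-0.91 ± 0.10), CENPK (-0.84 ± 0.09), ZWINT (-0.65 ± 0.10), BIRC5 (-0.47 ± 0.09), SPC25 (-0.37 ± 0.12), SGO1 (-0.35 ± 0.08) and BUB3 (-0.28 ± 0.09) were also lower in HCC1937+BRCA1.

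SGO2 was the highest in HCC1937+BRCA1 relative to HCC1937. Its control arrays read 10.17 and 10.01, against 9.23 on both arrays of HCC1937, a difference of 0.86 ± 0.11 (adjusted p = 0.000398). The pair of shugoshins thus differed between the lines in opposite directions. CENPC (0.61 ± 0.13), CDCA8 (0.59 ± 0.10), SKA1 (0.57 ± 0.11), CENPU (0.43 ± 0.09), CENPN (0.35 ± 0.09), BUB1B (0.31 ± 0.08) and CENPB (0.28 ± 0.08) were also higher. NDC80 (0.01 ± 0.16), BUB1 (-0.07 ± 0.09), CENPE (0.05 ± 0.12) and CENPF (-0.12 ± 0.09), all strongly lowered by COH29, were not called between the lines.

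Several of the smaller line differences depended on single arrays. Without HCC1937 control array 1 or 2, 4 or 5 genes were called higher, and without HCC1937+BRCA1 control array 1, 4 were. The calls of CENPB and BUB3 were lost without any 1 of the 4 control arrays (adjusted p from 0.0753 to 0.128 and from 0.0974 to 0.154). Those of CENPN (adjusted p from 0.064 to 0.113) and BUB1B (adjusted p from 0.0625 to 0.0966) were lost without either HCC1937 control or HCC1937+BRCA1 control array 1. The call of SPC25 was lost without HCC1937 control array 1 (adjusted p = 0.28), either HCC1937+BRCA1 control (adjusted p = 0.075 and 0.197) or either HCC1937+BRCA1 COH29 array (adjusted p = 0.0603). Those of CENPC, CENPU and SGO1 were lost without HCC1937 control array 1 (adjusted p = 0.0506), HCC1937+BRCA1 control array 1 (adjusted p = 0.0601) and either HCC1937 control (adjusted p = 0.0543 and 0.0523), in that order.

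Genes next to these on the chromosomes were set beside them, a description chosen after the line differences had been seen. For each gene the 10 nearest measured genes on either side in RefSeq order were taken, 20 in all. For reference, 14.8% of all genes were lower and 16.4% higher in HCC1937+BRCA1. Genes of the list not called between the lines are not gone through here. Some of these had shifted neighbours too, such as CENPI (0.04), with 7 of 20 lower and 1 higher. CENPH and CENPK both lie on chromosome 5 with 13 measured genes between them. The neighbours of CENPH had a median line difference of -0.49, with 12 of 20 lower and 2 higher, and those of CENPK one of -0.39, with 9 of 20 lower and 1 higher. The 13 genes between them had a median of -0.48, with 7 lower and 1 higher. SKA3 and CENPJ lie on chromosome 13, with neighbour medians of -0.47 (11 lower) and -0.28 (10 lower). SGO1 on chromosome 3 and BUB3 on chromosome 10 had neighbour medians of -0.39 (10 lower, 2 higher) and -0.26 (10 lower), close to their own differences. Among genes higher in HCC1937+BRCA1, the neighbours of CENPU (chromosome 4) had a median of 0.42, of SKA1 (chromosome 18) 0.37, of SGO2 (chromosome 2) 0.35 and of CDCA8 (chromosome 1) 0.34, with 11 or 12 of 20 called higher. The other 7 genes called between the lines had neighbour medians between -0.18 and 0.07. ZWINT (chromosome 10) and CENPC (chromosome 4) had neighbour medians of -0.01 each, CENPB (chromosome 20) one of -0.06, BUB1B (chromosome 15) 0.02, SPC25 (chromosome 2) 0.06, CENPN (chromosome 16) 0.07 and BIRC5 (chromosome 17) -0.18. Called higher and lower among the 20 neighbours were 6 and 6 for ZWINT, 3 and 0 for CENPC, 0 and 4 for CENPB and 3 and 0 for BUB1B. For SPC25 they were 3 and 3, for CENPN 6 and 3 and for BIRC5 1 and 4. Neighbouring genes overlap between members that lie close together, copy number was not measured here, and its part in these differences was not tested.

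**Figure D5:**
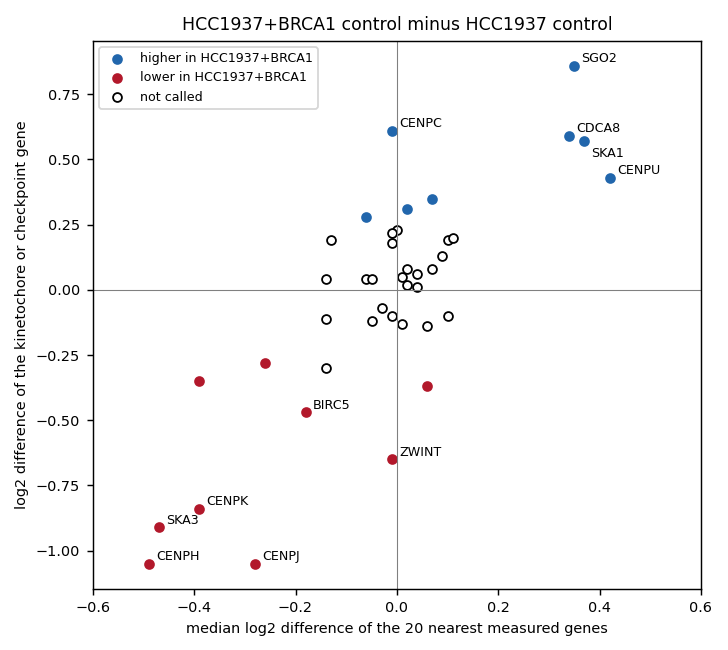
Each point is a gene of the list, with its log2 difference without drug, HCC1937+BRCA1 minus HCC1937, on the vertical axis and the median difference of its 20 nearest measured genes on the horizontal axis. CENPH, CENPJ, SKA3 and CENPK lie at the lower left and SGO2, CDCA8, SKA1 and CENPU at the upper right, while ZWINT and CENPC lie near 0 on the horizontal axis.

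Many genes that work with the kinetochore also fell. Of 21 measured further kinetochore and checkpoint genes, 12 fell in HCC1937, against 12.5% of all genes, and 0 rose, against 10.2%. Their median log2 change was -0.35. In HCC1937+BRCA1 the shares of all genes that fell and rose were 20.1% and 13.6%. HCC1937+BRCA1 had 15 that fell and 1 that rose, with a median of -0.60, and the rise was lost without COH29 array 1 or 2 or control array 1. PLK1, the mitotic kinase, read 10.58 and 10.71 with COH29 in HCC1937, against 12.41 and 12.37, and 9.56 and 9.88 in HCC1937+BRCA1, against 11.58 and 11.72. Its changes were -1.75 ± 0.12 and -1.93 ± 0.12 (adjusted p = 3.77e-05 and 9.7e-06). HJURP, the chaperone that loads CENPA, changed by -0.86 ± 0.10 and -0.96 ± 0.10 (adjusted p = 0.000481 and 0.000144). TRIP13, which remodels MAD2, changed by -0.70 ± 0.08 and -1.04 ± 0.08 (adjusted p = 0.000418 and 2.67e-05). HASPIN, the histone kinase that recruits the passenger complex, changed by -0.34 ± 0.11 and -0.61 ± 0.11 (adjusted p = 0.0498 and 0.00221). KNTC1, of the ROD, ZW10 and ZWILCH complex, changed by -0.35 ± 0.09 and -0.29 ± 0.09 (adjusted p = 0.0249 and 0.0351), and ZW10 by -0.10 ± 0.09 and -0.30 ± 0.09 (adjusted p = 0.449 and 0.0285, and 0.573 for the difference of effects). The call of HASPIN in HCC1937 was lost without any 1 array other than HCC1937 COH29 array 2 (adjusted p from 0.0615 to 0.27), and that of ZW10 in HCC1937+BRCA1 without COH29 array 2 or control array 1 (adjusted p = 0.149 and 0.159). The call of KNTC1 was lost in HCC1937 without COH29 array 2 or either control (adjusted p from 0.0854 to 0.137), and in HCC1937+BRCA1 without COH29 array 2 or any 1 of the 4 controls (adjusted p from 0.0555 to 0.184). Median scaling and loess ended the calls of HASPIN in HCC1937 (adjusted p = 0.0683 and 0.0517) and, in HCC1937+BRCA1, of KNTC1 (-0.23 and -0.18, adjusted p = 0.091 and 0.186) and ZW10 (-0.24 and -0.19, adjusted p = 0.0689 and 0.127).

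A set of 18 genes held the anaphase-promoting complex, the target of the checkpoint, and genes set beside it, such as UBE2C and FBXO5. Of the 18, 9 were lower in HCC1937, against 12.5% of all genes. In HCC1937+BRCA1 8 of the 18 were lower, against 20.1%, with a median log2 change of -0.30 in each line. The complex's activator CDC20, to which the checkpoint proteins bind and which was counted with the kinetochore genes above, changed by -1.03 ± 0.09 and -1.01 ± 0.09 (adjusted p = 0.000146 and 7.44e-05). The ubiquitin-conjugating enzyme UBE2C changed by -1.01 ± 0.08 and -1.43 ± 0.08 (adjusted p = 9.49e-05 and 8.47e-06), the subunit CDC27 by -0.85 ± 0.08 and -1.14 ± 0.08 (adjusted p = 0.000146 and 1.53e-05), and the inhibitor FBXO5 was not called (-0.01 ± 0.13 and -0.17 ± 0.13), with a sign in HCC1937 that turned after median scaling and after loess (0.02 in both). The count in HCC1937 was 3, 4 and 3 without COH29 array 1, control array 1 and control array 2.

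Of 15 genes of cohesin and separase, 6 in HCC1937 and 7 in HCC1937+BRCA1 fell, against 12.5% and 20.1% of all genes. In each line 1 rose, against 10.2% and 13.6%. The single rise was lost in HCC1937 without control array 1, and in HCC1937+BRCA1 without COH29 array 1 or control array 2. Separase, ESPL1, changed by -1.11 ± 0.09 and -1.22 ± 0.09 (adjusted p = 8.1e-05 and 2.05e-05). Securin, PTTG1, was not called (-0.24 ± 0.09 and -0.25 ± 0.09, adjusted p = 0.0967 and 0.0619). Calls of PTTG1 were made in HCC1937 without COH29 array 2 (adjusted p = 0.0421) and with a trended, robust eBayes (adjusted p = 0.0299). In HCC1937+BRCA1 they were made on leaving out HCC1937 COH29 array 1 or array 2 (adjusted p = 0.0386 each), with the filter on dim genes (adjusted p = 0.0335) and with the trended eBayes (adjusted p = 0.0166). Not called were the cohesin subunits RAD21 (-0.25 ± 0.09 and -0.11 ± 0.09) and STAG2 (-0.14 ± 0.09 and -0.09 ± 0.09), although RAD21 was called in HCC1937 with that filter and that eBayes (adjusted p = 0.0389 and 0.00575). Sororin, CDCA5, was called in HCC1937+BRCA1 (-0.28 ± 0.08, adjusted p = 0.0268) and not in HCC1937 (-0.24 ± 0.08, adjusted p = 0.0659). Its effects in the lines were not called different (adjusted p = 0.932), and the call was lost without any 1 array of HCC1937+BRCA1 (adjusted p from 0.0539 to 0.143), after median scaling (-0.21, adjusted p = 0.0706) and after loess (-0.16, adjusted p = 0.143). In HCC1937 CDCA5 was called with the filter on dim genes, the trended eBayes and no moderation (adjusted p = 0.0334, 0.0264 and 0.0385). Condensin had 5 of 8 genes lower in HCC1937, or 3 without COH29 array 1, control array 1 or control array 2, and 6 of 8 in HCC1937+BRCA1. NCAPG changed by -0.62 ± 0.08 and -0.60 ± 0.08 (adjusted p = 0.000977 and 0.000679), and SMC4 was not called (-0.25 ± 0.11 and -0.18 ± 0.11). It was called in HCC1937 with a trended, robust eBayes (adjusted p = 0.0379) and in HCC1937+BRCA1 without control array 2 (adjusted p = 0.0415).

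A list of 15 genes held the DREAM and MuvB complexes, which govern CHR promoters, and genes set beside them. Some of the latter, such as CDKN1A, encode no subunit of either complex. Of the 15, 6 in HCC1937 and 8 in HCC1937+BRCA1 fell, against 12.5% and 20.1% of all genes. In turn 3 and 4 rose, against 10.2% and 13.6%. FOXM1, a transcription factor of G2 genes, changed by -0.65 ± 0.09 and -0.85 ± 0.09 (adjusted p = 0.00103 and 0.000144). LIN54, the MuvB subunit that binds the CHR, was higher in HCC1937+BRCA1 (0.55 ± 0.09, adjusted p = 0.00126) and not called in HCC1937 (0.26 ± 0.09, adjusted p = 0.0649), where median scaling and loess gave a call (adjusted p = 0.0474 and 0.0386). The difference of its effects was not called (-0.30 ± 0.12, adjusted p = 0.355). MYBL2, of the activating MuvB complex, was called in neither line (0.07 ± 0.09 and -0.08 ± 0.09). CDKN1A, the cyclin-dependent kinase inhibitor p21, changed by 1.41 ± 0.13 and 1.62 ± 0.13 (adjusted p = 0.00014 and 2.95e-05). In HCC1937 the count that fell was 3 without COH29 array 1 or either control array, and the count that rose was 1 without either COH29 array or control array 2.

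The epithelial markers EPCAM, CDH1, KRT8, KRT18 and KRT19 averaged between 11.71 and 11.81 on the 8 arrays. CDH1 rose in HCC1937 (0.26, adjusted p = 0.0468), and 1 of the 5 rose in HCC1937+BRCA1. Without drug 1 of the 5, KRT19, was lower in HCC1937+BRCA1 (mean 7.75, against 8.57 in HCC1937). Of 4 basal markers 1 was higher there and 1, KRT5, lower (mean 9.28, against 10.98). Of 4 luminal markers 1 was lower. The 6 fibroblast markers averaged 6.18 and 6.38 with COH29 in HCC1937, against 6.12 and 6.14 on its controls, and 6.32 and 6.35 in HCC1937+BRCA1, against 6.12 and 6.14 on its controls, higher on each treated array. All 6 had positive changes in both lines, and DCN was the 1 called, in HCC1937+BRCA1 (0.25, adjusted p = 0.0442). The 4 leukocyte markers averaged 7.49 and 7.51 with COH29 in HCC1937, against 7.62 and 7.65 on its controls, and 6.73 and 6.77 in HCC1937+BRCA1, against 6.56 and 6.68 on its controls. PTPRC, the defining one, lay between 3.73 and 4.31, and CD3E and CD68 were called in neither line. CD14 read 9.38 and 9.57 with COH29 in HCC1937, against 10.47 and 10.74 on its controls, and 6.62 and 6.81 in HCC1937+BRCA1, against 6.81 and 6.87 on its controls. It fell in HCC1937 (-1.13, adjusted p = 0.000295) and not in HCC1937+BRCA1 (-0.12, adjusted p = 0.448), with a called difference of effects (adjusted p = 0.0357), and was lower in HCC1937+BRCA1 than in HCC1937 without drug (-3.77, adjusted p = 9.68e-08). The mean of the 4 endothelial markers was lower with the drug, at 6.59 on both COH29 arrays of HCC1937, against 7.28 and 7.31 on its controls, and 6.23 and 6.29 in HCC1937+BRCA1, against 6.66 and 6.75 on its controls. PECAM1 and CDH5 were the 2 of 4 that fell, with log2 changes of -1.95 and -1.48 for PECAM1 and of -1.28 and -0.50 for CDH5. VWF (0.25 and 0.05) and KDR (0.13 and 0.14) were not called. The part of these markers in the changes of the kinetochore genes was not tested.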

How the data were processed

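RNA expression of 2 lines with and without COH29 was measured on 8 arrays, 2 per group, and samples were grouped by their labels. The authors deposited log2 intensities of 33297 probe sets, used as they stand, and RMA and Partek are named, with no version, per the submitters' processing notes. RMA corrects background, equalises the arrays' distributions and summarises probes on the log2 scale, which can hide a shift shared by all genes. Once sorted, the arrays' values lay within 0.297 of each other. No genome build or scan batch is given in the sources used here.

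The platform annotation paired 19460 probe sets with 1 gene, 1754 with several and 12083 with none, and only the first were used. Of these, 19429 carry a symbol that the RefSeq table of human genes (GRCh38.p14) holds. Where a gene had several probe sets (769 of 18417 genes), the one brightest on average represented it. All 8 arrays entered a group-means model in limma 3.58.1 under R 4.3.3 (4 residual degrees of freedom), with calls at an adjusted p (Benjamini-Hochberg) under 0.05 and moderated standard errors and 95% intervals. It compared COH29 with control per line, these effects with each other, and the lines without drug. The fit was tested on simulated data.

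The members and the lists of related genes and markers were chosen with earlier results of these data known, and lists are described by counts and medians without a test. All list genes may be named, together with HJURP, KNTC1, ZW10, CDC20, PLK1, HASPIN, TRIP13, FBXO5, UBE2C, CDC27, ESPL1, PTTG1, CDCA5, RAD21, STAG2, NCAPG, SMC4, FOXM1, MYBL2, LIN54 and CDKN1A whatever their values. One further gene of that rule is not reported here. Promoter letters were searched with Python 3.11.15. Tables and figures used pandas 2.3.3 and matplotlib 3.10.9. Alternatives were a filter on genes below the 30th percentile, median scaling, an unmoderated fit, eBayes with trend and robust, cyclic loess, averaging a gene's probe sets, only the arrays compared, a log2 change of at least 1, a replicate block and leaving out each array. A block with crossed numbers was added after seeing the data.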

Additional observations from a re-analysis of the deposited data

How the results depend on the processing

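Across the alternatives other than a minimum log2 change and the crossed block, the calls of 17 of 27 genes of the list in HCC1937, 28 of 30 in HCC1937+BRCA1 and 9 of 17 between the lines were kept throughout. The count of genes that rose in HCC1937, 2, was 1 with no moderation, with the replicate block or with only the arrays compared, 3 after loess, and between 0 and 2 on leaving out single arrays. The count higher in HCC1937+BRCA1 than in HCC1937 without drug was between 4 and 8 on leaving out single arrays. At a log2 change of at least 1, 3 genes fell and 0 rose in HCC1937, 8 fell and 0 rose in HCC1937+BRCA1, and 2 were lower and 0 higher between the lines. With no moderation, the genes of the list that lost their call were AURKB, CENPQ, MIS12, NSL1, SGO2, SPC25, TTK and ZWINT in HCC1937, MAD2L1 in HCC1937+BRCA1, and CENPC and SPC25 between the lines. No gene of the list had a called difference of effects under any alternative run.

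Signs turned only for values that were not called. After median scaling and after loess, FBXO5 in HCC1937 was 0.02, and CENPP in HCC1937+BRCA1 was 0.03 and 0.07. After loess the line differences of CENPQ and NDC80 were each -0.01. On leaving out single arrays, the ranges in HCC1937 were -0.04 to 0.24 for CENPC, -0.01 to 0.13 for CENPW, -0.01 to 0.20 for DSN1 and -0.06 to 0.04 for FBXO5. In HCC1937+BRCA1 they were -0.40 to 0.01 for CENPH and -0.33 to 0.00 for FBXO5. For the line differences they were -0.08 to 0.12 for CENPQ, -0.05 to 0.14 for CENPW, -0.03 to 0.05 for NDC80, -0.08 to 0.18 for CENPE, -0.30 to 0.07 for TTK, -0.03 to 0.01 for CDC27 and -0.10 to 0.03 for STAG2. The cause was not tested.

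Replicate differences of the groups correlated across all genes with r between -0.204 and 0.26. The highest was between the COH29 and control arrays of HCC1937+BRCA1 (0.26 over all genes and 0.518 over the genes of the list). Over the genes of the list the lowest was -0.37, between HCC1937 controls and the COH29 arrays of HCC1937+BRCA1. The labels give no shared source, and the numbers were not taken to pair the samples. With the replicate block, 23 genes fell and 1 rose in HCC1937, 28 fell and 2 rose in HCC1937+BRCA1, and 8 were lower and 8 higher between the lines. The control groups' differences correlated at -0.105, and with numbers crossed between the lines, a fit added after seeing the data, the counts were 25 and 2, 28 and 3, and 8 and 8. With 2 arrays per group, changes near the median standard error of 0.103 could not be resolved. Some larger ones were not called by limma either, such as MAD2L1 (-0.27, adjusted p = 0.116) and CENPJ (-0.25, adjusted p = 0.0898) in HCC1937.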
